A study of Mus musculus with 1 sample.

Results

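The cells described here are the smooth muscle cells of the mouse pancreas, 109 cell barcodes of the 10947 that passed the limits on depth and mitochondrial content, out of 11789 in the library. They made up 0.996% of the retained barcodes (exact Clopper-Pearson 95% interval 0.818 to 1.20%). They were chosen by measured values: at least 5 UMIs of *Acta2* and *Tagln* together, at least 2 UMIs of *Myh11*, *Cnn1* and *Actg2* together, and no UMI of *Pecam1*, *Cdh5*, *Ptprc*, *Msln* or *Upk3b*. A UMI, or unique molecular identifier, marks a single captured transcript, and the genes that must be at 0 mark endothelial cells, leukocytes and the mesothelium that covers the organ.

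The library came from *Scap* f/f mice, which carry floxed *Scap* alleles without the *Pdx1*-Cre driver and serve the study as controls. The sample is labelled as wildtype. Whole pancreata of 5 to 6 animals, 2 weeks old, with males and females in equal number, were pooled and dissociated together, so there was 1 library and no replicate. The study asked how loss of *Scap* changes the cells of the pancreas, and the *Scap*-deleted library was not analysed here.

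Smooth muscle cells line arteries, veins and the larger ducts, and they shorten when calcium activates myosin light chain kinase, which lets smooth muscle myosin pull on actin filaments. Nitric oxide relaxes them through cyclic GMP. Their contractile genes are switched on by serum response factor together with its partner myocardin. Serum response factor binds a short element known as the CArG box. Pericytes are the related mural cells of capillaries, and fibroblasts lay down the collagen around both.

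The table held 51540177 UMIs over 32285 genes, with 500 to 174899 UMIs in a barcode. The 109 smooth muscle cells held 461684 of them. A single cell held 941 to 16054 UMIs, with a median of 2963 and quartiles of 1869 and 5150, and 8 cells held over 10000. The median cell had 1587 genes detected and 2.93% mitochondrial UMIs. Levels are given as CPM, the summed UMIs of a gene per 1000000 UMIs of the class, with the exact 95% Poisson interval of the count. With a single library the intervals cover counting error only, no test between groups of cells was made, and a difference between classes is a description of this library. Since all cells of the library were made from the same pool of animals, the spread among cells is not a spread among animals.

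The promoters of a few of these genes hold matches of letters to the CArG element. The sequences are the 250 bases before the RefSeq start of the gene, build GRCm38.p6, written 5′ to 3′ on the strand of the gene, and they are shown as examples from the 9 rule and contractile genes whose windows held a box, *Acta2* because the rule used it. The others were *Myl6*, *Ldb3*, *Cnn2*, *Pdlim3*, *Pcp4l1* and *Synm*. Capitals mark CArG boxes, allowing at most 1 G or C among the 6 inner bases. The *Acta2* window is chr19:34255374-34255623 on the minus strand, the *Myl9* window chr2:156775214-156775463 on the plus strand and the *Vcl* window chr14:20929148-20929397 on the plus strand.
Acta2: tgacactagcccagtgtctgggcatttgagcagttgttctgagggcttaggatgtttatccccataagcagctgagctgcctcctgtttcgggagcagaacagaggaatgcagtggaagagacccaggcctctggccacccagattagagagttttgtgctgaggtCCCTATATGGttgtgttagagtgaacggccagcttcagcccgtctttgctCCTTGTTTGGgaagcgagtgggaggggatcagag
Myl9: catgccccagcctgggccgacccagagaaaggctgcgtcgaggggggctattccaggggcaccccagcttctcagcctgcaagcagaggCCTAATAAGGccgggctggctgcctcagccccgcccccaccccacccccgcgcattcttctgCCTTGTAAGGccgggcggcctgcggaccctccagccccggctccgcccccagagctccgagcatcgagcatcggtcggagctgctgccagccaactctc
Vcl: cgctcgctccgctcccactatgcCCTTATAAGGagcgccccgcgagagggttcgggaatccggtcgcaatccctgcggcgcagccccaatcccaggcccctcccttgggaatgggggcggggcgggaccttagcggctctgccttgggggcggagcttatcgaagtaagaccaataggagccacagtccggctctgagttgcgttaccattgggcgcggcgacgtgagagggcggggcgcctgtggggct

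The boxes of *Acta2* began at -84 and -34 from the start, and each had 1 G or C inside. *Myl9* had an uninterrupted box at -161 and a box with 1 G or C at -99, and *Vcl* had an uninterrupted box at -227. Across all 32851 windows of the table, 482 (1.47%) held an uninterrupted box and 2823 (8.59%) held a box with at most 1 G or C inside, on either strand, since the element reads alike on both. Counted per gene, 439 (1.62%) and 2643 (9.78%) of 27025 genes did. Of the 25 rule and contractile genes with a window, 5 (20%) and 9 (36%) did. Of the 21 genes with a window among the 25 that stood highest over fibroblasts, 2 (9.52%) and 5 (23.8%) did. A box is a match of letters and was not tested as a binding site.

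The genes of the rule describe what was selected. *Acta2*, smooth muscle actin (chr19:34241090-34255590), had 3596 UMIs, with 3 in the lowest cell, 16 in the median cell and 225 in the highest. *Tagln*, the actin-binding protein transgelin (chr9:45929619-45936058), had 2248 UMIs, with 0 in the lowest cell, 10 in the median cell and 154 in the highest. *Myh11*, smooth muscle myosin heavy chain (chr16:14194535-14291372), was detected in 107 of the 109 cells, with a median of 5 UMIs and 105 in the highest. Within its group of the rule, *Myh11* was the gene seen in the most cells.

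*Actg2*, gamma smooth muscle actin (chr6:83512905-83536265), was detected in 48 cells with at most 14 UMIs, and *Cnn1*, calponin (chr9:22099216-22109630), in 27 cells with at most 13. All of *Myh11*, *Cnn1* and *Actg2* were seen in 18 cells, and *Myh11* alone in 53. With every cell reduced to 800 randomly drawn UMIs, so that depth no longer differed, *Acta2* was still seen in 104 cells, *Myh11* in 82, *Actg2* in 21 and *Cnn1* in 9. The 35 cells with 2 or more *Actg2* UMIs had *Acta2* at 9813 CPM against 5183 CPM in the 61 cells with none, where CPM are the summed UMIs per 1000000. The plot of the rule genes shows the 35 cells at the upper right. Both genes belong to the rule, *Actg2* is part of the vertical axis, and the 35 cells had a median depth of 5531 UMIs against 2303. Their place in the plot is therefore a description of the selection.

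**Figure D1:**
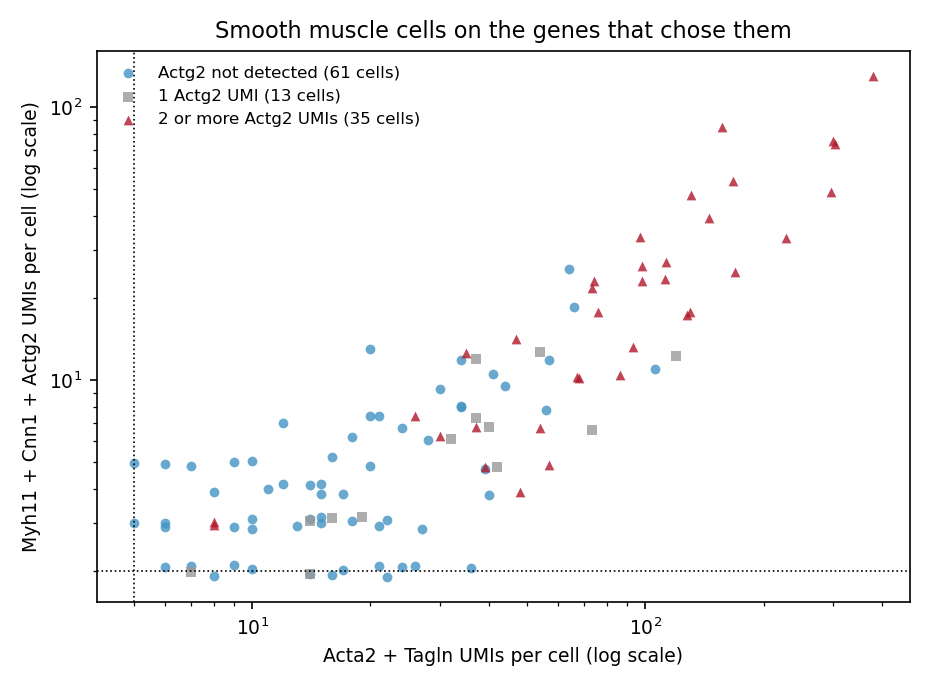
Each point is 1 of the 109 smooth muscle cells, placed by its summed *Acta2* and *Tagln* UMIs (x axis, log scale) and its summed *Myh11*, *Cnn1* and *Actg2* UMIs (y axis, log scale, with slight vertical jitter), and coloured by its *Actg2* UMIs. The dotted lines are the thresholds of 5 and 2 UMIs. The 35 cells with 2 or more *Actg2* UMIs, a count that is part of the y axis, lie mostly at the upper right.

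The selection had soft edges. Of the retained barcodes, 333 had at least 5 *Acta2* and *Tagln* UMIs and 181 of these also had at least 2 UMIs of the myosin, calponin and *Actg2* group. Of the 181, 58 carried *Pecam1* or *Cdh5* UMIs, 11 *Ptprc* and 14 *Msln* or *Upk3b*, and were left out. Just inside the limits, 34 cells had only 2 or 3 UMIs of the myosin group, and their *Myl9* level was 1296 CPM and their *Col1a1* level 3821 CPM. Just outside, 16 barcodes had 1 such UMI, with *Myl9* at 716 CPM and *Col1a1* at 8077 CPM, and 57 had none, with *Myl9* at 396 CPM. Another 4 barcodes just outside had 3 or 4 *Acta2* and *Tagln* UMIs.

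The name of the class was checked against genes that the rule did not use. The smooth muscle cells were compared with 3504 fibroblasts, which had *Pdgfra* and at least 10 *Col1a1* and *Col3a1* UMIs, and with pericytes, which had at least 4 UMIs of the pericyte genes *Rgs5*, *Kcnj8*, *Abcc9*, *Higd1b*, *Ndufa4l2* and *Notch3*. Both classes were held to low or no *Myh11*, *Cnn1* and *Actg2* by their own rules, so these genes are not compared. The contractile genes outside the rule were widely detected, *Tpm1* in 108, *Cald1* in 103 and *Myl9* in 102 of the 109 cells. Of the 92 barcodes that the pericyte rule took, 10 carried epithelial transcripts and supplied 53.2% of the UMIs. The 41 pericytes without epithelial transcripts and with at most 1 UMI of *Dcn*, *Lum* and *Dpt*, chosen after these values were seen, are called restricted pericytes here. They held 65901 UMIs, so a single UMI is 15.2 CPM in them, and 2.09% of their UMIs were globin.

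A gene was counted as higher or lower when the ratio of CPM + 10 passed 2-fold, among genes with a mean of at least 20 CPM over both classes. Against fibroblasts 6897 genes were compared, and 713 (10.3%) were higher and 580 (8.41%) lower in smooth muscle cells. Against the 92 barcodes of the pericyte rule, 580 of 7365 genes (7.88%) were higher and 699 (9.49%) lower. Against restricted pericytes, 820 of 6952 genes (11.8%) were higher and 909 (13.1%) lower. The median log2 ratios over all genes compared were 0.05, -0.08 and -0.13.

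Genes of the contractile apparatus were higher in smooth muscle cells than in fibroblasts throughout. All 24 members compared of the 25 on the list were at least 2-fold higher, with a median log2 ratio of 3.77, where the background was 10.3% of genes. Against the 92 barcodes 23 of 24 were higher, where 7.88% of all genes were. Against restricted pericytes 18 of 24 were higher and none was lower, beside 11.8% and 13.1% of all genes, with a median log2 ratio of 1.56. *Tpm1* and *Tpm2*, the tropomyosins that run along the thin filament, had levels of 3931 CPM (3752 to 4116) and 1698 CPM (1581 to 1821) in smooth muscle cells. In fibroblasts they had 129 and 45.6 CPM, and in restricted pericytes 1093 and 455 CPM.

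*Myl9*, the regulatory light chain that the kinase phosphorylates, was seen in 102 of 109 cells at 2337 CPM (2199.7 to 2481), against 91.0 CPM in fibroblasts and 926 CPM in restricted pericytes. *Mylk*, the kinase itself, had 1388 CPM (1283 to 1500.2) against 54.5 and 607 CPM. *Cald1*, caldesmon, and *Vcl*, the adhesion protein vinculin, did not separate smooth muscle cells from restricted pericytes. The ratio of the *Cald1* levels was 1.04 (exact 95% interval 0.874 to 1.26) and that of the *Vcl* levels 0.952 (0.678 to 1.37).

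Wide gaps in this list were those of genes nearly absent from fibroblasts. *Lmod1*, leiomodin, which starts actin filaments, had 340.1 CPM (289 to 398) in smooth muscle cells and 0.443 CPM in fibroblasts, with 2 UMIs in restricted pericytes. *Pcp4l1* had 273 CPM against 0.296 CPM in fibroblasts. *Ldb3*, a protein of actin anchoring sites, had 67 UMIs in 28 smooth muscle cells and none in restricted pericytes, where 3 counts would be 45.5 CPM. *Des*, the intermediate filament desmin, was at 338 CPM against 10.1 in fibroblasts, and at 1.86 times its level in restricted pericytes (1.03 to 3.67).

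**Figure D2:**
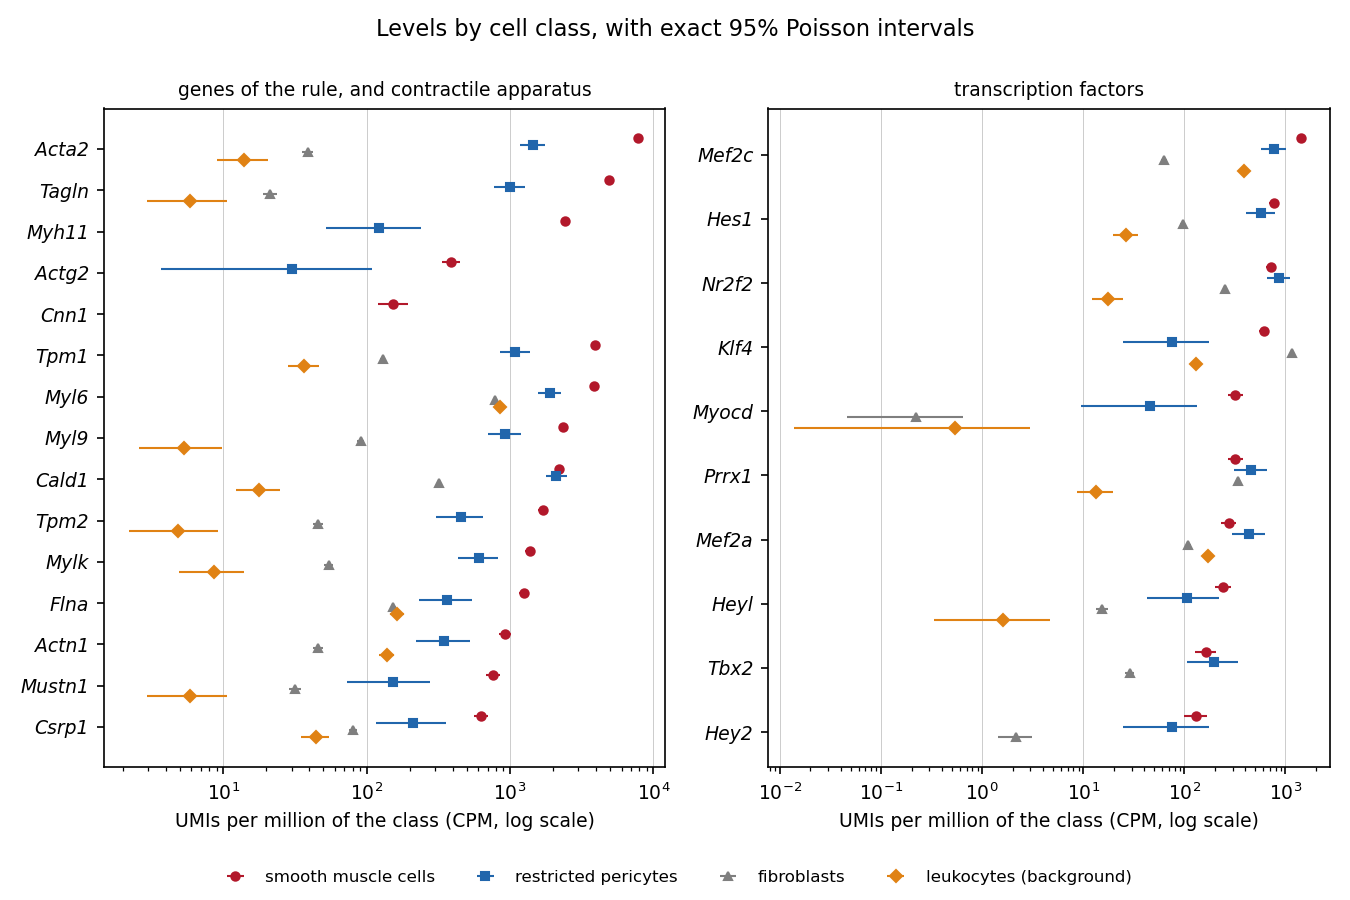
Levels (CPM, log scale) of the rule genes, the 10 most counted contractile genes and the 10 most counted transcription factors in smooth muscle cells, restricted pericytes, fibroblasts and leukocytes, with exact 95% Poisson intervals. A class without a UMI has no point, *Myh11*, *Cnn1* and *Actg2* were fixed at 0 in fibroblasts and leukocytes by the rules of those classes, and *Tpm1*, *Myl9* and *Mylk* are highest in smooth muscle cells.

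Leukocytes, which should lack these genes, were used as the background, although their own rule had left out barcodes with *Myh11*, *Cnn1* or *Actg2*. Their median depth was 1940 UMIs against 2963 in smooth muscle cells. After thinning of both to 800 UMIs, *Myl9* was seen in 0.284% of the 704 leukocytes and in 73.4% of smooth muscle cells, *Tpm1* in 2.27% and 81.7% and *Eln* in 4.69% and 74.3%. *Acta2*, which the rule had fixed in the smooth muscle cells, was seen in 0.71% of the thinned leukocytes. Before thinning *Acta2* was seen in 3.55% of leukocytes and *Myl9* in 1.42%. *Myl6*, a light chain of non-muscle cells as well, was seen in 51.7% of thinned leukocytes and does not mark the class.

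Among the transcription factors, *Myocd*, myocardin, was nearly absent from fibroblasts. It had 148 UMIs in 49 of the smooth muscle cells, at 321 CPM (271 to 377), against 3 UMIs in all 3504 fibroblasts, a ratio of 1446 (485 to 7092). Restricted pericytes also had 3 UMIs, a ratio of 7.04 (2.36 to 34.5). Its partner *Srf* was sparse, with 9 UMIs in 8 smooth muscle cells. Of the 14 factors compared with fibroblasts, 9 were higher and none lower, with a median log2 ratio of 1.36, and against restricted pericytes 5 of 15 were higher and none lower, where 10.3% and 11.8% of all genes were higher.

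*Mef2c*, a factor shared by all muscle lineages, had 1421 CPM (1314 to 1534) against 62.3 CPM in fibroblasts and 774 CPM in restricted pericytes. The Notch target genes *Heyl*, *Hey2* and *Hes1* stood at 243, 130.0 and 771 CPM in smooth muscle cells and at 15.3, 2.14 and 96.3 CPM in fibroblasts. *Klf4*, a factor known for repressing contractile genes, had 617 CPM (548 to 693), above the 75.9 CPM of restricted pericytes and below the 1159 CPM of fibroblasts. *Tbx18* and *Foxf2*, known from mural cells of other organs, had no UMI in smooth muscle cells, where 3 counts would be 6.50 CPM.

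Outside the rule genes and among genes seen in at least 20% of the cells, the largest ratios of CPM + 10 over fibroblasts belonged to *Kcnab1*, a subunit of voltage-gated potassium channels, and *Ctnna3*, an alpha-catenin. *Kcnab1* had 740 UMIs in 78 of the 109 cells, at 1603 CPM (1489 to 1723) against 9.09 CPM in fibroblasts, a ratio of 176 (146 to 215). It was also 6.21 times (3.85 to 10.7) its level in restricted pericytes. *Ctnna3* had 2634 CPM (2488 to 2786) in 99 cells, 92.3 times (82.3 to 104) the level of fibroblasts and 2.07 times (1.66 to 2.61) that of restricted pericytes. The *Ctnna3* gene spans 1573570 bases and *Kcnab1* 268840, and counting with this version of Cell Ranger includes reads from introns unless it is switched off.

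Some of the other genes of this group set smooth muscle cells apart from fibroblasts and from restricted pericytes as well. *Map3k7cl* had 232 UMIs in 73 cells, at 503 CPM against 2.88 CPM in fibroblasts and 1 UMI in restricted pericytes. *Sorbs2*, an adaptor of the actin cytoskeleton, had 632 CPM against 17.1 CPM in fibroblasts and 3 UMIs in restricted pericytes, a ratio of 13.9 (4.71 to 67.8) to the latter. *Dgkb*, a diacylglycerol kinase, had 1012 CPM against 17.9 and 258 CPM. *Myom1*, a myomesin that is best known from striated muscle, had 308 CPM in 56 cells against 1.03 and 60.7 CPM.

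Others of the 25 were mural genes that restricted pericytes shared. *Gm13889* had 797 CPM in smooth muscle cells and 713 CPM in restricted pericytes, a ratio of 1.12 (0.823 to 1.55), against 4.36 CPM in fibroblasts. *Mcam*, an adhesion molecule, had 444 and 409.7 CPM against 3.99 CPM. *Inpp4b*, a lipid phosphatase, had 1050.5 and 1305 CPM against 18.0 CPM, and it was also seen in 55.1% of leukocytes. *Tinagl1* had 470.0 and 334 CPM against 2.73 CPM in fibroblasts.

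**Figure D3:**
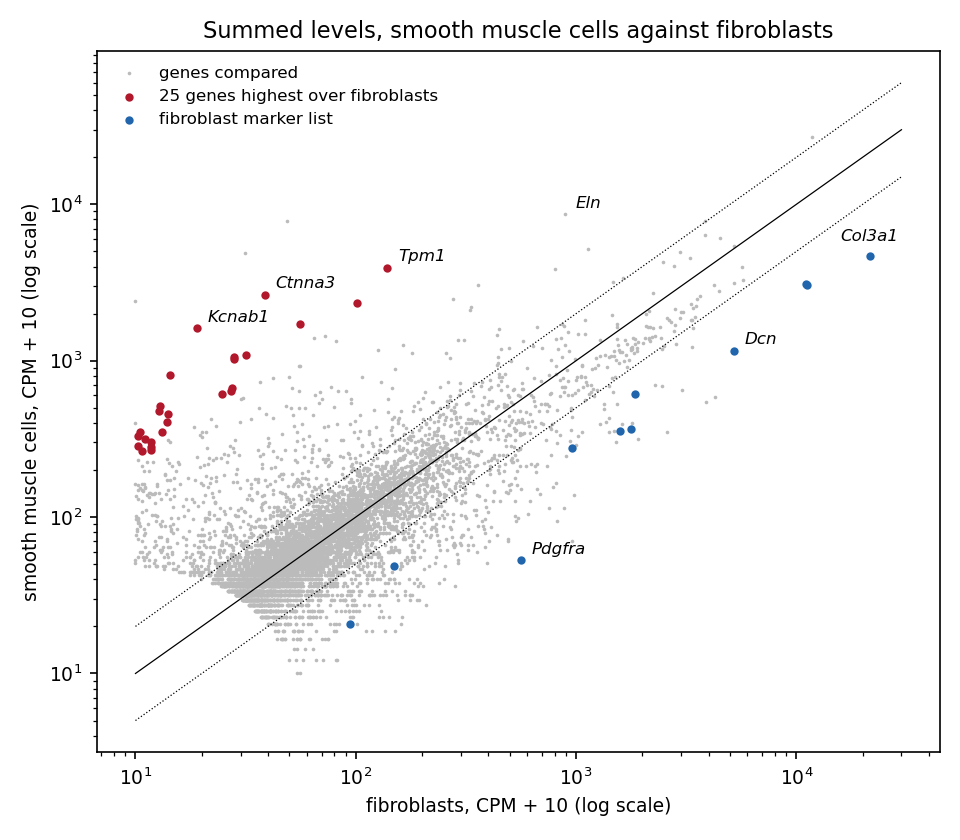
Each point is a gene with a mean of at least 20 CPM, placed by its level plus 10 CPM in the 3504 fibroblasts (x axis) and in the 109 smooth muscle cells (y axis), both on log scales. The solid line marks equal levels and the dotted lines 2-fold differences, and the 25 genes outside the rule with the largest ratio, with *Kcnab1* and *Ctnna3* first, lie far above the line while the fibroblast markers lie below it.

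Ion channels and calcium handling divided in another way. Of 16 members compared with fibroblasts, 12 were higher and none lower, beside 10.3% and 8.41% of all genes. The median log2 ratio was 2.67. Against restricted pericytes 5 of 17 were higher and 3 lower, beside 11.8% and 13.1% of all genes. *Cacna1c*, the pore of the L-type calcium channel, had 920.5 CPM (835 to 1012) in smooth muscle cells, 45.3 CPM in fibroblasts and 1259 CPM (1003 to 1561) in restricted pericytes. *Trpc6*, a cation channel, had 221 CPM in smooth muscle cells and 243 CPM in restricted pericytes, but 0.296 CPM in fibroblasts. The ratio to restricted pericytes was 0.731 (0.576 to 0.936) for *Cacna1c* and 0.910 (0.534 to 1.65) for *Trpc6*.

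Genes of the internal calcium store, apart from *Casq2*, are given with their values in both mural classes. *Ryr2*, a calcium release channel of the store, had 98 UMIs in 41 cells, at 212 CPM (172 to 259), against 1 UMI in restricted pericytes, a ratio of 13.99 (2.45 to 558), and 4.21 CPM in fibroblasts. *Pln*, phospholamban, which restrains the calcium pump, had 64 UMIs in 29 cells and none in restricted pericytes. *Atp2a2*, the pump, had 535 CPM against 273 CPM, a ratio of 1.96 (1.21 to 3.36). *Casq2*, which buffers calcium in the store, had 31 UMIs in 23 cells against 1 UMI in 3504 fibroblasts. *Itpr1*, the other main release channel, had 439.7 CPM against 379 CPM in restricted pericytes, a ratio of 1.16 (0.763 to 1.83), and *Stim1*, a sensor of the store, had 136 against 75.9 CPM, a ratio of 1.80 (0.731 to 5.73).

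Potassium channels split between the mural classes. *Kcnma1*, the large-conductance channel opened by calcium, had 106 UMIs in 38 smooth muscle cells, at 229.6 CPM, and no UMI in restricted pericytes. *Kcnj8* and *Abcc9*, the pore and the regulatory subunit of the ATP-sensitive channel, had 17.3 and 97.5 CPM in smooth muscle cells and 455 and 1153 CPM in restricted pericytes. Both had been among the genes that chose the pericytes, so that gap is a description.

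The nitric oxide pathway was present in both mural classes. *Prkg1*, the kinase that cyclic GMP activates, had 2454 CPM (2313 to 2601) in 104 of the 109 smooth muscle cells, against 268 CPM in fibroblasts and 2534 CPM in restricted pericytes. *Gucy1a1* and *Gucy1b1*, the subunits of the receptor for nitric oxide, had 412 and 259.9 CPM against 23.4 and 26.1 CPM in fibroblasts, and the ratios to restricted pericytes were 0.875 (0.596 to 1.32) and 0.902 (0.553 to 1.55). *Pde5a*, which degrades cyclic GMP, was at 0.548 times (0.366 to 0.842) its level in restricted pericytes. Of the 17 relaxation and G protein genes compared, 11 were higher and none lower than in fibroblasts, beside 10.3% and 8.41% of all genes. Against restricted pericytes 2 were higher and 2 lower, which is near the 11.8% and 13.1% of all genes. One of the lower genes was *Rgs5*, which had served to choose the pericytes.

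Receptors for vasoactive signals were sparse and mixed. Of 14 compared with fibroblasts, 7 were higher and 4 lower, and of 12 compared with restricted pericytes 5 were higher and 3 lower, beside 10.3% and 8.41% of all genes against fibroblasts and 11.8% and 13.1% against restricted pericytes. *Adra1a*, an adrenergic receptor that drives contraction, had 75 UMIs in 31 smooth muscle cells, at 162 CPM (128 to 204), against 3.92 CPM in fibroblasts and 1 UMI in restricted pericytes. *Npy1r*, a receptor for neuropeptide Y, had 64 UMIs in 29 cells at 139 CPM against 0.665 CPM in fibroblasts. *Ednra* and *Ednrb*, the endothelin receptors, had 256 and 162 CPM against 32.0 and 4.36 CPM in fibroblasts and 409.7 and 425 CPM in restricted pericytes.

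The lower receptors named other neighbours. *Agtr1a*, the angiotensin receptor, had 45.5 CPM (28.2 to 69.5) in smooth muscle cells, 42.9 CPM in fibroblasts and 273 CPM (162 to 432) in restricted pericytes. *Chrm3*, a muscarinic receptor, had 28 UMIs at 60.6 CPM against 480.0 CPM in fibroblasts. *Chrm2*, a further muscarinic receptor of visceral muscle, had 10 UMIs in 3 cells, and *Agtr2* 11 UMIs in 5 cells. In the 75 cells without signs of other cell types, defined with the spread among cells, *Chrm2* and *Agtr2* had no UMI and *Chrm3* 17.9 CPM. *Htr2b*, *Tacr1*, *Tacr2* and *Oxtr* had no UMI in any smooth muscle cell.

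**Figure D4:**
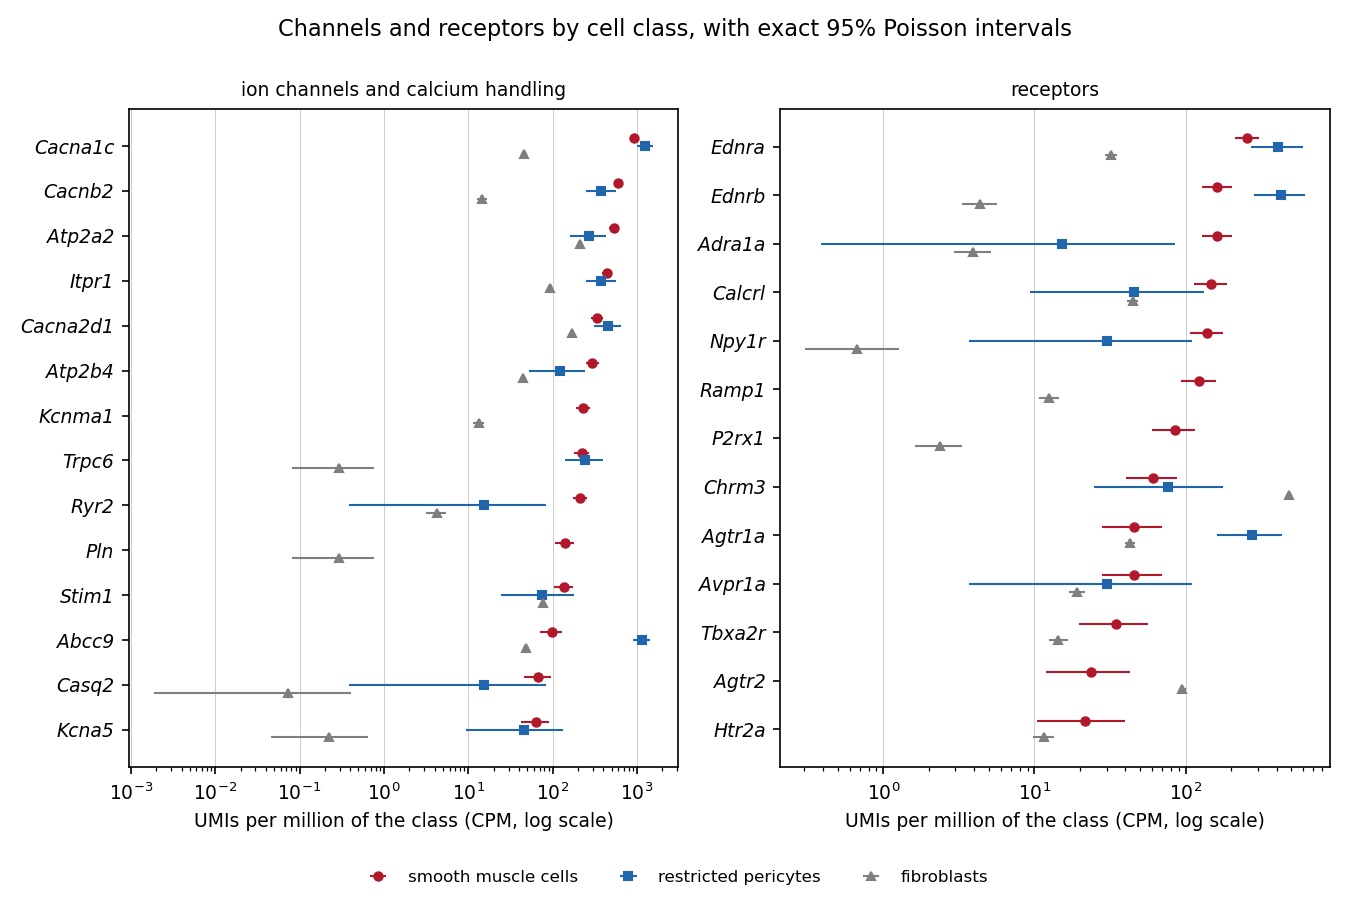
Levels (CPM, log scale) of the 14 most counted channel and calcium handling genes and the 13 most counted receptors in smooth muscle cells, restricted pericytes and fibroblasts, with exact 95% Poisson intervals. A class without a UMI has no point, *Ryr2*, *Pln* and *Kcnma1* are highest in smooth muscle cells, and *Abcc9* and *Agtr1a* are highest in restricted pericytes.

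Markers of vascular and of visceral smooth muscle were then set side by side. All 11 vascular markers compared were higher than in fibroblasts, where 10.3% of all genes were, with a median log2 ratio of 3.96. Against restricted pericytes 3 of 11 were higher and 1 lower, beside 11.8% and 13.1% of all genes. The lower gene was *Rgs5*, which like *Notch3* had served to choose those pericytes, so their gaps are descriptions. *Notch3*, the receptor of arterial mural cells, was seen in 83 of 109 cells at 771 CPM (693 to 855), against 39.5 CPM in fibroblasts and 956 CPM in restricted pericytes, and *Jag1*, its ligand, had 340.1 CPM against 43.8 CPM in fibroblasts. Of the 12 visceral markers 3 had no UMI (*Hhip*, *Tacr2* and *Gdnf*), 7 could be compared, and 3 were higher and 2 lower than in fibroblasts, where 8.41% of all genes were lower. None of 6 was higher or lower than in restricted pericytes. The vascular list summed to 5781 CPM in smooth muscle cells, 501 CPM in fibroblasts and 9029 CPM in restricted pericytes. *Rgs5* and *Notch3* are part of these sums, so the higher sum of restricted pericytes was set in part by their selection. The levels of *Rgs5* are given with the pericyte markers. The visceral list summed to 754, 718 and 577 CPM in the same order, with *Des* its most counted gene.

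Pericyte markers lay between the classes. Of 12 compared with fibroblasts 9 were higher and 2 lower, beside 10.3% and 8.41% of all genes. Of 14 compared with restricted pericytes none was higher and 10 were lower, beside 11.8% and 13.1% of all genes. Of the 10, 4 (*Rgs5*, *Kcnj8*, *Abcc9* and *Higd1b*) had been used to choose those pericytes. *Pdgfrb*, the receptor for platelet-derived growth factor, was not used, and had 318 CPM (269 to 374) in smooth muscle cells, 51.5 CPM in fibroblasts and 865 CPM (655 to 1121) in restricted pericytes. *Cspg4*, the NG2 proteoglycan, did not separate the mural classes, with 156 and 167 CPM. *Rgs5* had 1085 CPM in smooth muscle cells, 21.7 CPM in fibroblasts and 4825 CPM in restricted pericytes.

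Matrix genes were mostly lower than in fibroblasts, elastin and *Sparcl1* being higher. *Eln*, elastin, had 3974 UMIs in 96 of the 109 cells, at 8608 CPM (8342 to 8879), which was 9.75 times (9.41 to 10.1) the level of fibroblasts and 10.1 times (7.78 to 13.4) that of restricted pericytes. The cell with the most *Eln* supplied 9.13% of these UMIs. The fibroblasts were not uniform, since *Eln* was among the leading genes of a cluster that held 785 of them. Of the 17 elastic fibre and matrix genes compared with fibroblasts, 2 were higher (*Eln*, and *Sparcl1* at 1339 against 282 CPM) and 11 lower, beside 10.3% and 8.41% of all genes, with a median log2 ratio of -1.20. Against restricted pericytes, which were limited to 1 UMI of some fibroblast genes, 10 of 16 were higher and 2 lower, beside 11.8% and 13.1% of all genes, with a median log2 ratio of 1.73. *Fbn1*, fibrillin, the scaffold of elastic fibres, was at 600.0 CPM against 1842 CPM, *Fbln5* at 128 against 294 CPM, and *Lox*, which crosslinks elastin, at 171 against 163 CPM.

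Basement membrane and adhesion genes went both ways, with 7 of 21 higher and 5 lower than in fibroblasts, beside 10.3% and 8.41% of all genes. *Dmd*, dystrophin, had 1317 CPM (1214 to 1426) against 71.2 CPM in fibroblasts and 334 CPM in restricted pericytes, from a gene of 2257272 bases. *Itga8*, an integrin subunit of smooth muscle, had 240.4 CPM against 16.3 CPM in fibroblasts and 1 UMI in restricted pericytes. *Lama5*, a laminin chain, had 117 CPM against 0.739 CPM in fibroblasts, whereas *Lama2* had 141 CPM against 652 CPM. *Col4a1*, a type IV collagen, was at 1048 CPM, 1.23 times (1.12 to 1.35) the 852 CPM of fibroblasts and 0.352 times (0.298 to 0.418) the 2974 CPM of restricted pericytes.

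The ligands, receptors and targets of the Notch, PDGF, TGF-beta and Hedgehog list went both ways, with 11 of 25 higher and 6 lower than in fibroblasts, beside 10.3% and 8.41% of all genes. The 6 lower genes included *Pdgfra*, which had served to choose the fibroblasts. Against restricted pericytes 4 of 25 were higher and 3 lower, near the 11.8% and 13.1% of all genes. Among the ligands, *Pdgfa* had 227 CPM against 14.6 CPM, *Tgfb2* 342 against 88.6 CPM and *Tgfb3* 179.8 against 36.8 CPM. *Igf2* went the other way, at 305 CPM against 1895 CPM in fibroblasts.

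The sterol and fatty acid genes that the study follows were sparse in these control cells. Of 16 compared with fibroblasts none was higher and 1, *Scd1*, was lower, beside 10.3% and 8.41% of all genes, and the median log2 ratio was -0.13. Of 19 compared with the 92 barcodes of the pericyte rule none was higher and 3 (*Srebf1*, *Fdft1* and *Scd2*) were lower, beside 9.49% of all genes. Of 14 compared with restricted pericytes 2 were higher and 2 (*Srebf1* and *Acaa2*) lower, near the 11.8% and 13.1% of all genes. *Scap* had 9 UMIs in 8 of the 109 smooth muscle cells, at 19.5 CPM (8.91 to 37.0), and 25.3 CPM in fibroblasts, a ratio of 0.771 (0.350 to 1.48). *Srebf2* had 52.0 CPM against 55.7 CPM. A moderate difference of *Scap* in either direction was not detectable at this depth.

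Transcripts of other cell types were present in some of the cells. Fibroblast markers, among them the *Pdgfra*, *Col1a1* and *Col3a1* that chose the fibroblasts, were lower than in fibroblasts for 11 of 11 genes compared. The share over all genes was 8.41%. Even so, *Col3a1* was seen in 92 and *Dcn* in 44 of the 109 cells, and *Dcn* reached 64 UMIs in 1 cell. Restricted pericytes had no *Pdgfra* UMI by rule and were limited to 1 UMI of *Dcn*, *Lum* and *Dpt*. Against them 7 of 9 markers were higher and none lower. Of all genes, 11.8% were higher and 13.1% lower there. In leukocytes *Col3a1* was seen in 60.9% and *Dcn* in 16.2% of barcodes. Digestive enzymes made up 1.38% of the UMIs, with one cell at 39.5%, and *Ctrb1*, an acinar protease, was seen in 103 cells and in 96.9% of leukocytes. The 10 endothelial markers summed to 98 UMIs, 64 of them *Esam*, with *Pecam1* and *Cdh5* at 0 by the rule and *Cldn5* at 0. The 10 leukocyte markers summed to 15 UMIs and the 8 mesothelial markers to 10.

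No UMI of the 5 adipocyte markers was seen, and of the 10 striated muscle markers *Tnnt2* led with 10 UMIs while *Acta1*, *Myod1* and *Myog* were at 0. Among 8 cell cycle genes, 19 cells had a UMI, and 1 cell supplied 53 of the 150 UMIs. Scrublet, a doublet caller, marked 537 retained barcodes (4.91%), 1 of them a smooth muscle cell, and none was removed. Of 14 immediate early and heat shock genes, 1 was higher and 1, *Dnajb1*, lower than in fibroblasts, near the 10.3% and 8.41% of all genes. Against restricted pericytes 6 were higher and *Dnajb1* was lower, beside 11.8% and 13.1% of all genes. *Fos* had 6115 CPM in smooth muscle cells, 4498 CPM in fibroblasts and 2777 CPM in restricted pericytes, and *Egr1* 2699, 2230.1 and 1305 CPM. The part of these genes in the differences between classes was not tested.

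The smooth muscle cells lay together when all retained barcodes were clustered without regard to the rule. Of 18 clusters 4 held any of them, and 102 of the 109 (93.6%) were in a single cluster of 195 barcodes, whose leading genes were *Acta2*, *Myh11*, *Tagln*, *Ctnna3*, *Kcnab1*, *Dgkb*, *Map3k7cl*, *Actg2*, *Tpm2* and *Myl9*. That cluster also held 44 barcodes of the pericyte rule and 5 fibroblasts. The other 7 smooth muscle cells lay in clusters that held 4, 2 and 1 of them. The clustering used the rule genes among others, so it is a description.

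Clustered on their own, the 109 cells fell into groups of 67, 26 and 16, which share this library and are given with no test. The group of 67 had the highest levels of *Acta2* (10454 CPM), *Myh11* (3460.1 CPM) and *Myocd* (416 CPM) and little *Dcn* (42.8 CPM), and its leading genes were *Pln*, *Kcna5* and others together with globins such as *Hbb-bs*, which are red blood cell genes. The group of 26 had 15522 CPM of *Eln*, 2176 CPM of *Dcn* and 5592 CPM of *Col1a1*, with 1136 CPM of *Myh11*, and its leading genes included *Ccl19*, *Npr3*, *Hmcn2* and *Mfap4*. The group of 16 had 3237 CPM of *Dcn*, 6173 CPM of *Col1a1* and 2664 CPM of *Eln*, and was led by genes such as *Efemp1*, *Gfpt2*, *Dpp4* and *Pi16*. Of these, *Hmcn2* and *Mfap4* also led the cluster of all barcodes that held 785 fibroblasts, and *Efemp1*, *Gfpt2* and *Pi16* one that held 985, so 42 of the 109 cells lay in groups led partly by genes of fibroblast clusters. *Rgs5* was nearly even over the groups, at 1104, 1077 and 1031 CPM, while *Npy1r* had 222, 14.9 and 71.6 CPM and *Fbln5* 3.89, 290 and 272 CPM.

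In all, 28 cells had at least 5 *Dcn* UMIs or a *Pdgfra* UMI, 5 had at least 10% digestive enzyme UMIs and 1 had at least 5% globin UMIs. Leaving these 34 out gave 75 cells with 279492 UMIs, in which *Acta2* was at 10122 CPM, *Myh11* at 3252 CPM, *Kcnab1* at 2125 CPM and *Eln* at 7914 CPM. In the 28 cells with *Dcn* or *Pdgfra*, *Acta2* was at 4323 CPM, *Myh11* at 1106 CPM, *Kcnab1* at 855 CPM and *Eln* at 10499 CPM. The 28 cells were also deeper, with a median of 5500.5 UMIs against 2436 in the other 81. Doublets of a smooth muscle cell and a fibroblast and cells that express both programmes cannot be told apart here.

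Against restricted pericytes the 75 cells gave ratios with cells rich in fibroblast transcripts left out on both sides. *Rgs5* had 1191 CPM and *Abcc9* 46.5 CPM in the 75 cells, against 4825 and 1153 CPM in the pericytes that both genes had served to choose. *Col3a1* was at 0.511 times (0.426 to 0.616) its level there. *Crispld2* had 210 UMIs in 31 of the 75 cells against 1 UMI, *Palld*, which bundles actin, 138 in 39 cells against 1, and *Rasd1*, *Pln*, *Ntn4* and *Rergl* had 75, 60, 54 and 53 UMIs against none. *Abi3bp* had 115 UMIs in 38 of the 75 cells against none, and was at least 9.04-fold higher when the 41 pericytes are given 3 counts, but fibroblasts had 356 CPM of it against 388 CPM in all 109 cells.

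Elastin and *Rgs5* varied between individual smooth muscle cells and ran in opposite directions. Among the 46 cells without *Rgs5*, 39 had 5 or more *Eln* UMIs and 2 had none. Among the 50 cells with 2 or more *Rgs5* UMIs, 18 had 5 or more *Eln* UMIs and 10 had none. The median *Eln* level per cell was 6944 CPM in the first group and 853 CPM in the second, with median depths of 3049 and 2842.5 UMIs. Over the 109 cells Spearman's rho of the levels was -0.490, a description over cells that share 1 library. The 2 levels also followed depth in opposite directions, *Eln* with rho 0.264 and *Rgs5* with rho -0.163.

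The same held after thinning to 800 UMIs. Cells with 2 or more *Rgs5* UMIs (30 cells) then had a median of 1 *Eln* UMI and those without *Rgs5* (59 cells) a median of 5. In the full counts *Acta2* was at 10037 CPM in the 46 cells without *Rgs5*, 8331 CPM in the 13 with 1 UMI and 5127 CPM in the 50 with 2 or more, and *Kcnab1* at 1639, 1371 and 1620.0 CPM. *Notch3* was at 632 CPM (531 to 747) without *Rgs5* and at 931 CPM (800.2 to 1077) with 2 or more UMIs. For comparison, the restricted pericytes had 4825 CPM of *Rgs5* and 849.8 CPM of *Eln*.

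**Figure D5:**
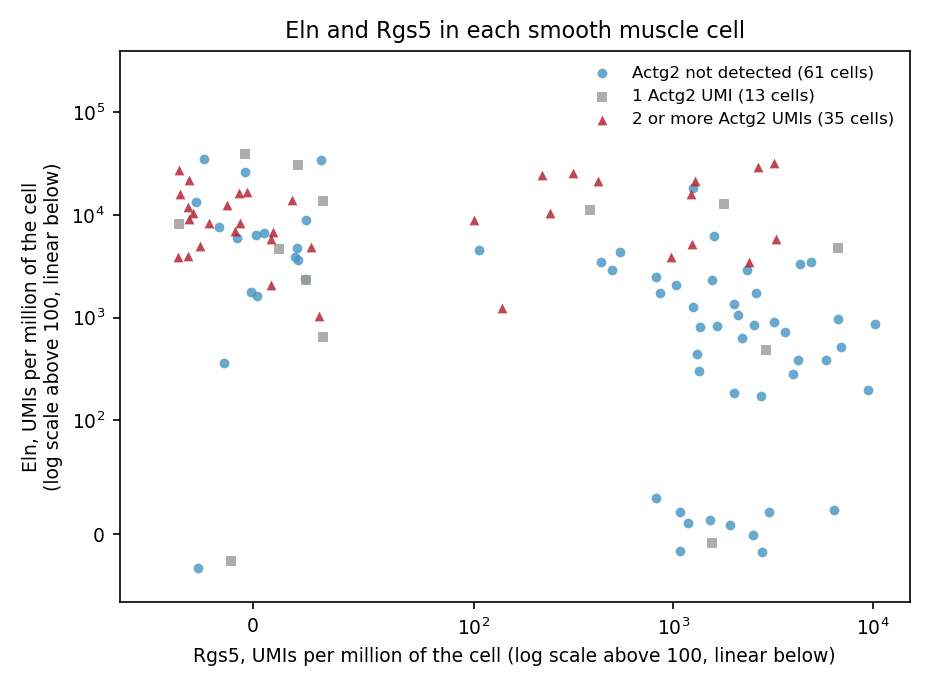
Each point is 1 of the 109 smooth muscle cells, placed by its *Rgs5* level (x axis) and *Eln* level (y axis) in UMIs per 1000000 UMIs of the cell, on axes that are logarithmic above 100 and linear below, with cells at 0 jittered around 0. Cells without *Rgs5* lie at high *Eln* with few exceptions, and the 35 cells with 2 or more *Actg2* UMIs all have *Eln*.

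Cells with *Actg2* were also rich in elastin. The 35 cells with 2 or more *Actg2* UMIs (32.1%, exact Clopper-Pearson 95% interval 23.5 to 41.7%) had *Eln* at 11064 CPM (10652 to 11488) and *Rgs5* at 464 CPM (383 to 558), and all 35 had at least 5 *Eln* UMIs. The share of cells with 2 or more *Actg2* UMIs was 6.42% after thinning to 800 UMIs. Under the stricter rule of at least 10 and 4 UMIs it was 47.1%. The 61 cells without *Actg2* had *Eln* at 3203 CPM (2939 to 3485) and *Rgs5* at 2086 CPM (1874 to 2316), and the 13 cells with 1 UMI had 15235 and 723 CPM. Of the 716 *Eln* UMIs of the 13 cells, 363 came from 1 cell. The median *Eln* level per cell was 9136 CPM in the 35 cells, 4785 CPM in the 13 and 1257 CPM in the 61. The 35 cells were deeper than the 61, with a median of 5531 UMIs against 2303, so that an *Actg2* UMI was easier to see in them. After thinning, 21 cells still had an *Actg2* UMI, with a median of 8 *Eln* UMIs against 2 in the other 88, and 4 of the 21 had *Rgs5* against 46 of the 88.

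Markers of both visceral and vascular muscle were seen with and without *Actg2*. The visceral list summed to 876 CPM in the 35 cells with 2 or more *Actg2* UMIs, 532 CPM in the 13 with 1 and 638 CPM in the 61 without, and the vascular list to 5467, 4085 and 6708 CPM. The vascular list includes *Rgs5*, which was at 464, 723 and 2086 CPM in these cells. The difference of the vascular sums was not separated from that of *Rgs5*. In the same order *Notch3* was at 847, 447 and 751 CPM, *Kcnab1* at 1674, 1170.3 and 1619 CPM and *Des* at 428, 192 and 248 CPM, so the 13 cells were lowest each time. Among genes outside the rule seen in at least 20% of either group, the largest ratio of CPM + 10 of the cells with 2 or more *Actg2* UMIs over those without belonged to *Dtna*, dystrobrevin, with 44 UMIs against 1, at 179 and 5.91 CPM. *Casq2* went the other way, with 4 UMIs against 24, at 16.3 and 142 CPM, and most others on that side were globin and acinar genes, among them *Hbb-bs* with 52 UMIs against 701, of which 660 came from 1 cell.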

How the data were processed

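Per the labels, the data are 1 droplet library of dissociated pancreas cells. The authors aligned the reads to mm10 with Cell Ranger 7.1.0 at default parameters, according to their methods and the submitters' processing notes, and deposited raw UMI counts, with no scaling. The ambient RNA removal of their methods is not visible in these whole numbers and was not repeated. Their methods give 10000 UMIs as the upper limit, under which 101 of the cells fall.

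Barcodes with over 800 and under 100000 UMIs and under 15% mitochondrial UMIs were retained. The smooth muscle cells and all gene lists were chosen with earlier results of these data known. Fibroblasts, pericytes and leukocytes were selected by marker UMIs. Each of these classes also had no UMI of *Pecam1*, *Cdh5*, *Msln* or *Upk3b* by rule. Fibroblasts and pericytes had no *Ptprc* UMI by rule, and pericytes and leukocytes no *Pdgfra* UMI. UMIs were summed per class and scaled to CPM, ratios used a pseudocount of 10 CPM, and genes with a mean CPM of at least 20 were compared. Ratios printed with an interval are of the CPM without the pseudocount, with the exact conditional interval of 2 Poisson counts. Intervals are at 95%, and a count of 0 was given the limit of 3 counts. Clustering used scanpy 1.11.5 (2000 variable genes, 30 components, 20 neighbours, Leiden at 0.5), which also ran Scrublet at an expected rate of 0.08. Python 3.11.15, numpy 2.4.6, scipy 1.17.1 and pandas 2.3.3 were used. The interval and thinning steps were tested on simulated data.

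Named genes are the rule genes, up to 10 of each list by UMIs and those at 0, the 25 with the largest ratio over fibroblasts and 15 each over and under pericytes among genes in at least 20% of cells, the 10 with the most UMIs, and 10 each way between cells with and without *Actg2*. Genes for restricted pericytes and for the 75 cells were named by the same rule, added after the data had been seen, and a few list members outside it were chosen after their values were seen. Gene coordinates are from GENCODE M21 on GRCm38 and promoters from RefSeq on GRCm38.p6, where the table held the gene. Alternatives changed the limits, the rule, the pseudocount, the filter, the class mean, the denominator and the depth. Some genes of the lists are counted in them but not reported by name here.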

Additional observations from a re-analysis of the deposited data

How the results depend on the processing

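The number of smooth muscle cells was 70 under the stricter rule of at least 10 and 4 UMIs, and stayed within 1.5 times 109 under the other limits tried. The share with 2 or more *Actg2* UMIs was 47.1% under that rule and 6.42% after thinning to 800 UMIs. Genes higher than in fibroblasts numbered 412 at a pseudocount of 50 CPM, 471 at a mean of at least 50 CPM and 1108 after thinning, and genes lower 271 at the pseudocount of 50, 922 after thinning and 901 without the 34 cells that carried other transcripts. Genes higher than in the 92 barcodes of the pericyte rule numbered 323 at the pseudocount of 50 and 907 after thinning, and genes lower 260, 324 at a mean of at least 50 CPM, 1225 with no filter and 1269 after thinning. Thinning leaves fewer UMIs behind each level and weights cells equally by construction, and the cause of these shifts was not tested. Of 180 recomputed levels of 18 genes, 114 stayed within the counting interval of the value given, 30 rose above it and 36 fell below it, and the largest and smallest were 1.37 and 0.647 times that value. The latter was *Cnn1*, at 99.6 CPM without the 8 cells over 10000 UMIs against 154 CPM. The count of cells, 461684 UMIs and 1 library of pooled animals limit what can be seen: no spread among animals can be given, and a gene at 0 may be present below 6.50 CPM. The restricted pericytes and the 75 cells without other transcripts were chosen after the data had been seen.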
